A study of Mus musculus with 36 samples.

Results

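All arrays of mice given any siRNA against Tnf were pooled and set against the arrays of mice given a scrambled siRNA, to ask what the siRNAs against Tnf share. The pool was taken from the sample titles and held 20 arrays of the 36 in the series: 6 of siTNF, the unmodified siRNA, 6 of siTNF-OMe, whose nucleotides carry O-methyl groups, and 8 of siTNF-OMe-P, with O-methyl-propanediol nucleotides. The comparison group was 7 scrambled siRNA arrays, and 9 arrays labelled Control were left out. Each array measured colon RNA of 1 labelled mouse sample on an Affymetrix array with 28853 probe sets. Every group carried the label 5% DSS (dextran sulfate sodium, which injures the colon lining and causes colitis), the scrambled group included, and the siRNAs were given intrarectally. Strain, age, siRNA dose and time of sampling are not given in the sources used here, nor are the siRNA sequences.

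Tnf encodes tumour necrosis factor, a cytokine made largely by macrophages and T cells that binds the receptors Tnfrsf1a and Tnfrsf1b and activates the transcription factor NF-kB, which in turn induces chemokines, adhesion molecules and its own inhibitors. In the inflamed colon it takes part in recruiting neutrophils and in loosening the epithelial barrier. An siRNA is a short double-stranded RNA whose guide strand, loaded into an Argonaute protein, directs cleavage of a matching mRNA, and double-stranded RNA can also be sensed by receptors that start an interferon response.

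The labels place the arrays in 3 amplification and 2 hybridization batches, and each batch held arrays of both arms. Amplification batch 1 held 5 TNF siRNA arrays and 1 scrambled array, batch 2 held 9 and 3, and batch 3 held 6 and 3. The tissue label was checked against 8 genes of colon epithelium. Cdx1, Vil1, Krt20, Car1, Muc2, Cdh1 and Epcam were above the array median on 27 of 27 arrays and Cdx2 on 26. The spread of values within an array, which normalization usually makes equal, was under an SD of 1.7 log2 on 3 TNF siRNA arrays and 1 scrambled array. On 8 TNF siRNA arrays and no scrambled array the squamous epithelium genes also read high, as described with that list. Nothing in the labels says how the animals were housed or dosed together, so the p-values measure the spread between these samples.

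The targeted gene was examined first, on the log2 signal scale. Tnf read 9.19, 8.72, 9.42, 9.15, 9.33 and 8.81 on the 6 siTNF arrays. On the 6 siTNF-OMe arrays it read 9.09, 8.80, 8.80, 8.41, 8.63 and 9.01. The 8 siTNF-OMe-P arrays gave 8.94, 8.86, 8.70, 8.42, 8.52, 8.86, 8.48 and 8.70, and the 7 scrambled arrays gave 9.38, 9.20, 9.47, 8.57, 8.36, 8.56 and 8.67. The scrambled arrays covered a wider range than all 20 TNF siRNA arrays together, and no TNF siRNA array lay below the lowest scrambled one. With both batches as covariates, the pooled difference was -0.08 ± 0.13 log2 (SE), with a 95% interval of -0.36 to 0.20 (limma, adjusted p = 0.999). The exact two-sided permutation test of the uncorrected difference of means, -0.04 log2, gave p = 0.77. A lower Tnf mRNA in the pooled animals was therefore not detected, and the interval leaves out a reduction of more than 0.36 log2.

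Each siRNA was also set against the same 7 scrambled arrays, which these comparisons share. The siTNF difference of Tnf was 0.17 ± 0.16, the siTNF-OMe difference -0.13 ± 0.15 and the siTNF-OMe-P difference -0.23 ± 0.14 log2 (SE). The moderated F test among the 3 siRNAs gave an unadjusted p of 0.0365 and an adjusted p of 0.704 over all probe sets (limma). For Tnf alone, an added exact permutation test among the 3 siRNAs, without batch terms, gave p = 0.0159. The pooled Tnf value averaged over siRNA differences between -0.23 and 0.17 log2. Whether the siRNAs differ in Tnf is not settled, as the F test did not pass after adjustment and the added test covered 1 gene. The Tnf difference changed direction between batches: fitted in amplification batch 2 alone it was -0.29, and in batch 3 alone 0.31. Scrambled replicates 1 to 3, from amplification batches 1 and 2, held the 3 highest scrambled Tnf values, and without scrambled replicate 3 the pooled difference was 0.03.

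**Figure D1:**
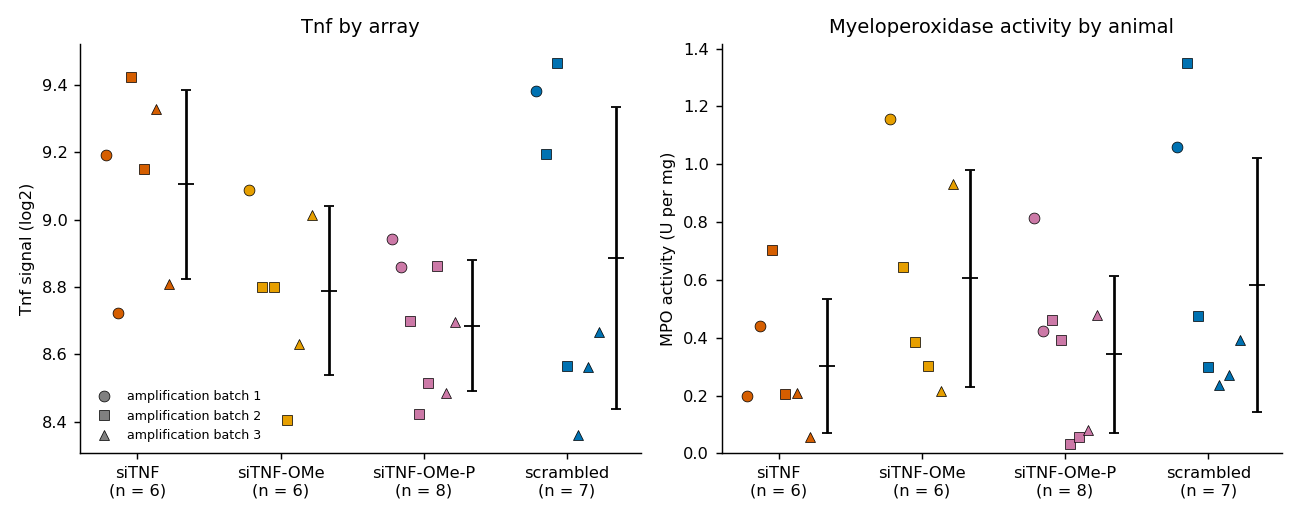
Tnf signal (log2, left) by array and myeloperoxidase (MPO) activity (U per mg, right) by animal in the siTNF, siTNF-OMe, siTNF-OMe-P and scrambled groups; symbols mark the amplification batch, and the bar beside each group is the mean ± SD. The scrambled values span 8.36 to 9.47 for Tnf and 0.238 to 1.35 U per mg for MPO, and the TNF siRNA groups overlap them.

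Across all probe sets, none passed in the pooled comparison: 0 of 28853 (0% called) had an adjusted p under 0.05, and the smallest adjusted p was 0.999 (limma with Benjamini-Hochberg adjustment). With TNF siRNA, 747 probe sets were higher and 415 lower at an unadjusted p under 0.05, 1162 in all, fewer than the 1442.65 that a threshold of 0.05 would give over that many null tests. That total depended on the pool and the setting. It was 2699 without siTNF in the pool, 653 without siTNF-OMe and 934 without siTNF-OMe-P, with 0 called each time. No probe set had groups that did not overlap. The median SE of the pooled difference was 0.0713 log2. Its 95% interval lay inside -1 to 1 log2 for 28724 probe sets (99.6%), and inside -0.5 to 0.5 for 27835 (96.5%). These shares are over all 28853 probe sets, including 11541 dim ones with the lowest mean signal, where a difference near 0 says little. The interval bounds the mean over the pooled siRNAs and not the change with each of them. With 1 probe set per gene, 603 of 19939 genes (3.02%) were higher and 243 (1.22%) lower at an unadjusted p under 0.05, and the counts given below for gene groups are to be read against these shares.

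**Figure D2:**
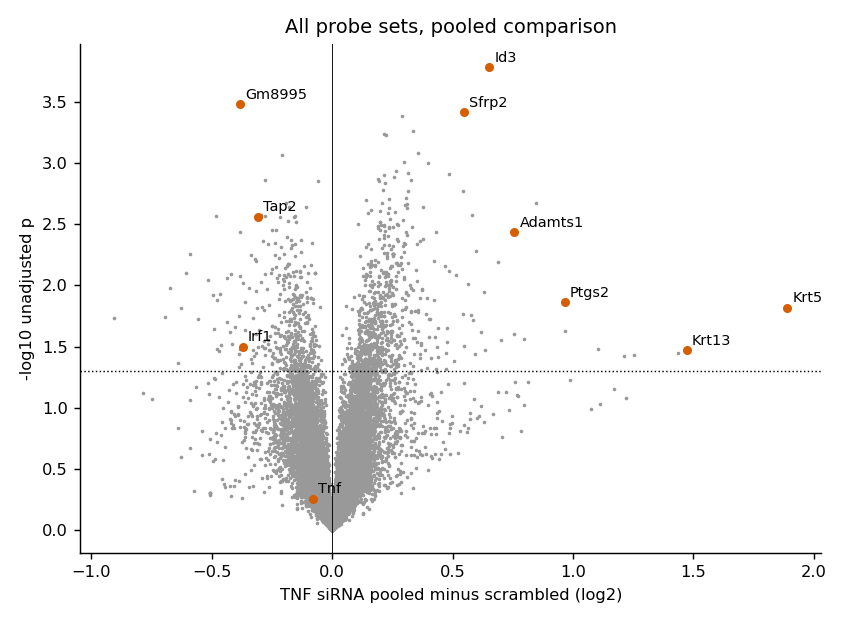
Each point is 1 of 28853 probe sets: the x axis gives TNF siRNA pooled minus scrambled (log2), the y axis -log10 of the unadjusted p, and the dotted line marks an unadjusted p of 0.05. Differences run between -0.91 and 1.89 log2, Krt5 lies farthest to the right, and Tnf lies near 0.

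None of the genes named from here on passed the test, and their values describe where the shared differences were largest relative to their spread. Id3, an inhibitor of basic helix-loop-helix transcription factors, had the smallest p. Its signal was 9.82, 10.3 and 10.9 at the lowest, median and highest TNF siRNA array, and 8.73, 9.73 and 10.7 on scrambled arrays. All 20 TNF siRNA arrays were above the scrambled mean, but only 2 were above the highest scrambled array. The pooled difference was 0.65 ± 0.15 log2 (SE; unadjusted p = 0.000163, adjusted p = 0.999, limma), and by siRNA it was 0.69 (siTNF), 0.52 (siTNF-OMe) and 0.73 (siTNF-OMe-P). In hybridization batches 1 and 2 alone the Id3 difference was 0.35 and 0.87.

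Sfrp2, a secreted modulator of Wnt signalling, differed by 0.55 ± 0.13 log2 and was above every scrambled array on 12 of 20 TNF siRNA arrays. Emcn (endomucin of venous and capillary endothelium) differed by 0.34, Lyve1 (a hyaluronan receptor of lymphatic endothelium and some macrophages) by 0.32, and Fermt2 (kindlin-2, an integrin activator) by 0.21. The 3 siRNAs gave close values for Emcn, at 0.32, 0.34 and 0.34 in the order siTNF, siTNF-OMe and siTNF-OMe-P. Ube2s, a ubiquitin-conjugating enzyme of the anaphase-promoting complex, had a small difference, 0.22 ± 0.06, with little overlap. Its TNF siRNA arrays read 9.15, 9.43 and 9.70 at the lowest, median and highest, the scrambled arrays 9.13, 9.27 and 9.32, and 19 of 20 TNF siRNA arrays lay above all scrambled arrays. The other genes of the 10 with the smallest p in this direction were Gramd1a (0.36), Ppic (0.30), Cacng7 (0.29) and Dnajb4 (0.27).

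In the other direction the smallest p belonged to Gm8995, a predicted gene, at -0.38 ± 0.09 log2 (SE; unadjusted p = 0.000328, adjusted p = 0.999, limma). Gm8995 read 7.77, 8.10 and 8.40 at the lowest, median and highest TNF siRNA array and 8.19, 8.29 and 9.04 on scrambled arrays, and 15 of 20 TNF siRNA arrays were below every scrambled array. Tap2, a subunit of the peptide transporter that feeds MHC class I, differed by -0.31 ± 0.09, and Plaat3, a phospholipase, by -0.38 ± 0.12. D430042O09Rik differed by -0.18 ± 0.05 with 17 of 20 TNF siRNA arrays below every scrambled one. Of its 9 probe sets, this was the 1 with the highest mean, and the others ran between -0.13 and 0.05 log2. The remaining genes were Lgals12 (-0.29), Gm1966 (-0.25), Vstm5 (-0.23), Nlrp1b (-0.19), Ppp1r3b (-0.18) and Gfi1 (-0.15). By siRNA, each against the same scrambled arrays, Gm8995 was at -0.43 (siTNF), -0.37 (siTNF-OMe) and -0.36 (siTNF-OMe-P). In amplification batch 3 alone, Tap2 was at 0.06 and Plaat3 at 0.01.

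**Figure D3:**
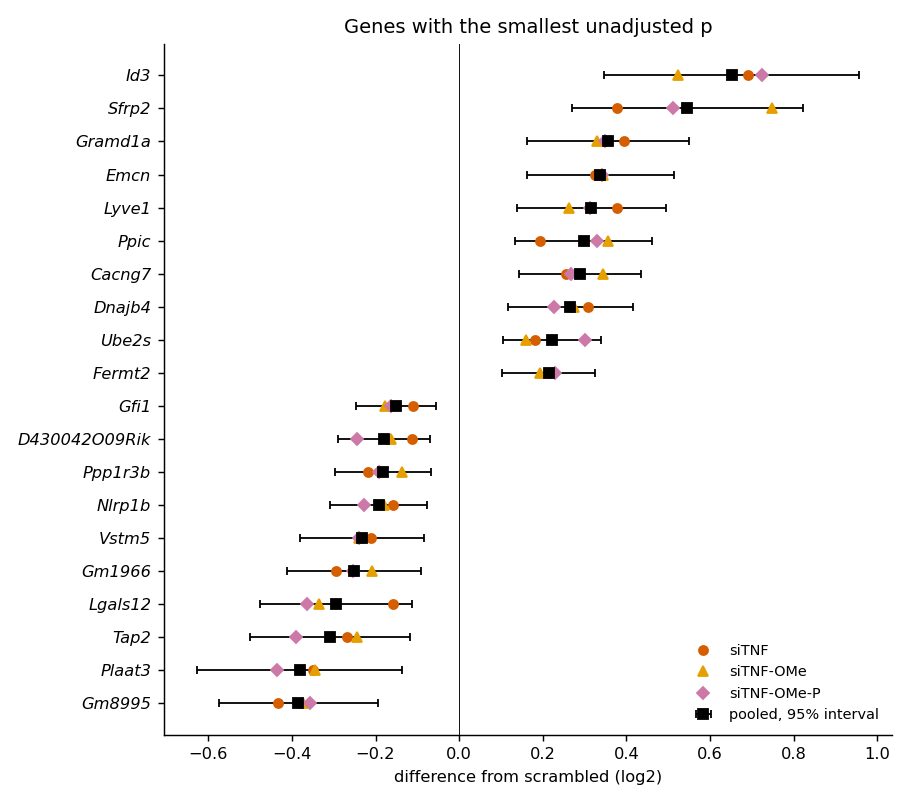
Differences from scrambled (log2, x axis) of the 10 genes higher and the 10 lower with the smallest unadjusted p; black squares with bars are the pooled difference and its 95% interval, and coloured points the 3 siRNAs, each against the same 7 scrambled arrays. Pooled values run between -0.38 for Gm8995 and 0.65 for Id3, and no gene passed the adjusted test.

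Gene groups of the pathway were read next. Counts are of genes with 1 probe set each, none passed the adjusted test, and the median over all 19939 genes was -0.01 log2. Of the 19939 genes, 9324 were positive and 10615 negative. The lists were chosen with earlier results of these data known, so their counts beside the shares over all genes are description and no test. Genes of a list were read on the same arrays, so their directions are not independent of each other. Of 22 measured genes of the Tnf ligand, its receptors and their signalling proteins, 11 were higher and 11 lower, with a median of 0.00 log2 and none at an unadjusted p under 0.05. Tnfrsf1a, the main signalling receptor, differed by 0.15 ± 0.09 log2 (SE), and Tab2, an adaptor of the TAK1 kinase, by 0.08 ± 0.05. Tradd, the adaptor that binds the receptor's death domain, differed by -0.18 ± 0.12, and Tab1, the activator of TAK1, by -0.10 ± 0.08. Among 14 NF-kB subunits and feedback inhibitors, 11 were positive, the median was 0.06, and 1 was higher at an unadjusted p under 0.05. That gene was Tnip2, a partner of the NF-kB inhibitor A20, at 0.12 ± 0.05. The median of the NF-kB list was -0.03 in amplification batch 2 and 0.20 in batch 3, and by siRNA it was 0.22 (siTNF), 0.06 (siTNF-OMe) and 0.01 (siTNF-OMe-P). Nfkbia, which encodes the inhibitor IkB-alpha and is itself an NF-kB target, read 11.03, 11.51 and 13.03 at the lowest, median and highest TNF siRNA array and 10.81, 11.27 and 11.75 on scrambled arrays. Its siTNF difference was 0.64 ± 0.16, its siTNF-OMe difference 0.25 ± 0.16 and its siTNF-OMe-P difference 0.09 ± 0.15 log2 (SE). The F test among the siRNAs for Nfkbia had an unadjusted p of 0.00511 and an adjusted p of 0.704 (limma). Cyld and Tnip1, both inhibitors of the pathway, were at -0.10 ± 0.09 and -0.04 ± 0.10.

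Of 27 measured targets of Tnf and NF-kB, 20 were positive and 7 negative, the median was 0.12 log2, 3 were higher and 2 lower at an unadjusted p under 0.05. Without siTNF replicate 3 the median was 0.05, and on arrays with an SD of at least 1.7 it was 0.0012. Ptgs2, the inducible cyclooxygenase, read 7.83, 9.64 and 11.5 at the lowest, median and highest TNF siRNA array and 7.83, 8.32 and 10.8 on scrambled arrays. The pooled difference of Ptgs2 was 0.97 ± 0.37 log2 (SE) and the arms overlapped over most of their range. In hybridization batches 1 and 2 alone the Ptgs2 difference was 0.20 and 1.49. Cxcl5, a neutrophil chemokine, differed by 0.63 ± 0.23. Tapbp (tapasin, of MHC class I loading) and Irf1 (a transcription factor of the interferon gamma response) differed by -0.15 ± 0.06 and -0.37 ± 0.16. Chemokines as a list had 21 of 30 positive with a median of 0.08 and 6 higher at an unadjusted p under 0.05. With 1 array left out the chemokine median ran between -0.0028 (without scrambled replicate 4) and 0.13 (without scrambled replicate 1), and on arrays with an SD of at least 1.7 it was -0.0088. Pf4 (platelet factor 4, also made by some macrophages) differed by 0.31 ± 0.10 and Cxcl12 (a chemokine made largely by stromal cells) by 0.27 ± 0.09. Ccl28, a mucosal chemokine for plasma cells, and Ccl25, a gut T cell chemokine, differed by -0.33 ± 0.18 and -0.09 ± 0.05. The other Ccl25 probe set, with a lower mean, was at 0.05 ± 0.06.

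In bulk tissue, fewer cells of a type and less RNA per cell cannot be told apart, which applies to every list that marks a cell type. Neutrophil genes had 17 of 20 positive with a median of 0.26 log2, and 1 was higher at an unadjusted p under 0.05. The median was 0.16 without siTNF replicate 3, 0.10 on arrays with an SD of at least 1.7 and 0.43 with dim probe sets, the 40% with the lowest mean, left out. Il1r2, the decoy receptor of interleukin 1, differed by 0.76 ± 0.32 and Clec4d, a myeloid C-type lectin, by 0.44 ± 0.21. Elane (neutrophil elastase) was at -0.06 ± 0.05 and Stfa2 (a stefin found in neutrophils) at -0.02 ± 0.05. Both were among the dim probe sets, with scrambled medians of 6.82 and 6.11 log2, so a value near 0 there says little. Cxcl5, Gfi1, Mmp7 and Prox1, named with other lists, were dim as well. The mean over the neutrophil list was 7.65, 8.18 and 9.94 log2 at the lowest, median and highest TNF siRNA array and 7.69, 7.83 and 8.68 on scrambled arrays. The highest was siTNF replicate 3, whose nearest neighbour was siTNF-OMe-P replicate 3 at 9.17.

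Genes of the type I interferon response were all negative, 26 of 26, with a median of -0.15 log2. Over all genes 10615 of 19939 were negative and the median was -0.01. Of the 26, 1 was lower at an unadjusted p under 0.05. Parp14 differed by -0.38 ± 0.17 and Oas3 (a sensor of double-stranded RNA) by -0.30 ± 0.15. Of 18 genes of antigen presentation and the interferon gamma response, 17 were negative, the median was -0.19, and 7 were lower at an unadjusted p under 0.05 (background 1.22%). Tap2 and Ciita, the master regulator of MHC class II genes (-0.18 ± 0.06), had the smallest p, and H2-Eb1, an MHC class II beta chain, was the 1 gene above 0, at 0.00 ± 0.06.

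The interferon lists varied widely among the scrambled arrays. The type I interferon list mean was 10.04, 10.16 and 9.87 log2 on scrambled replicates 1 to 3 and 9.52, 9.19, 9.20 and 9.13 on replicates 4 to 7, while the 20 TNF siRNA arrays lay between 9.05 and 10.00. Scrambled replicates 1 to 3 also had the highest MPO activities of the scrambled animals, at 1.06, 1.35 and 0.474 U per mg. Replicates 5 to 7 formed amplification batch 3 of the scrambled arm. The list median was -0.31 log2 in amplification batch 2 alone and 0.22 in batch 3 alone, and it was -0.33 in hybridization batch 1 and 0.06 in hybridization batch 2. For the antigen presentation list the medians were -0.32 in amplification batch 2 and 0.10 in batch 3, and -0.34 and -0.06 in hybridization batches 1 and 2. Without scrambled replicate 2 the type I interferon median was -0.07. On arrays with an SD of at least 1.7 the medians were -0.16 for the type I interferon list and -0.22 for the antigen presentation list. The part of batch and of scrambled replicates 1 to 3 in these lists was not tested.

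**Figure D4:**
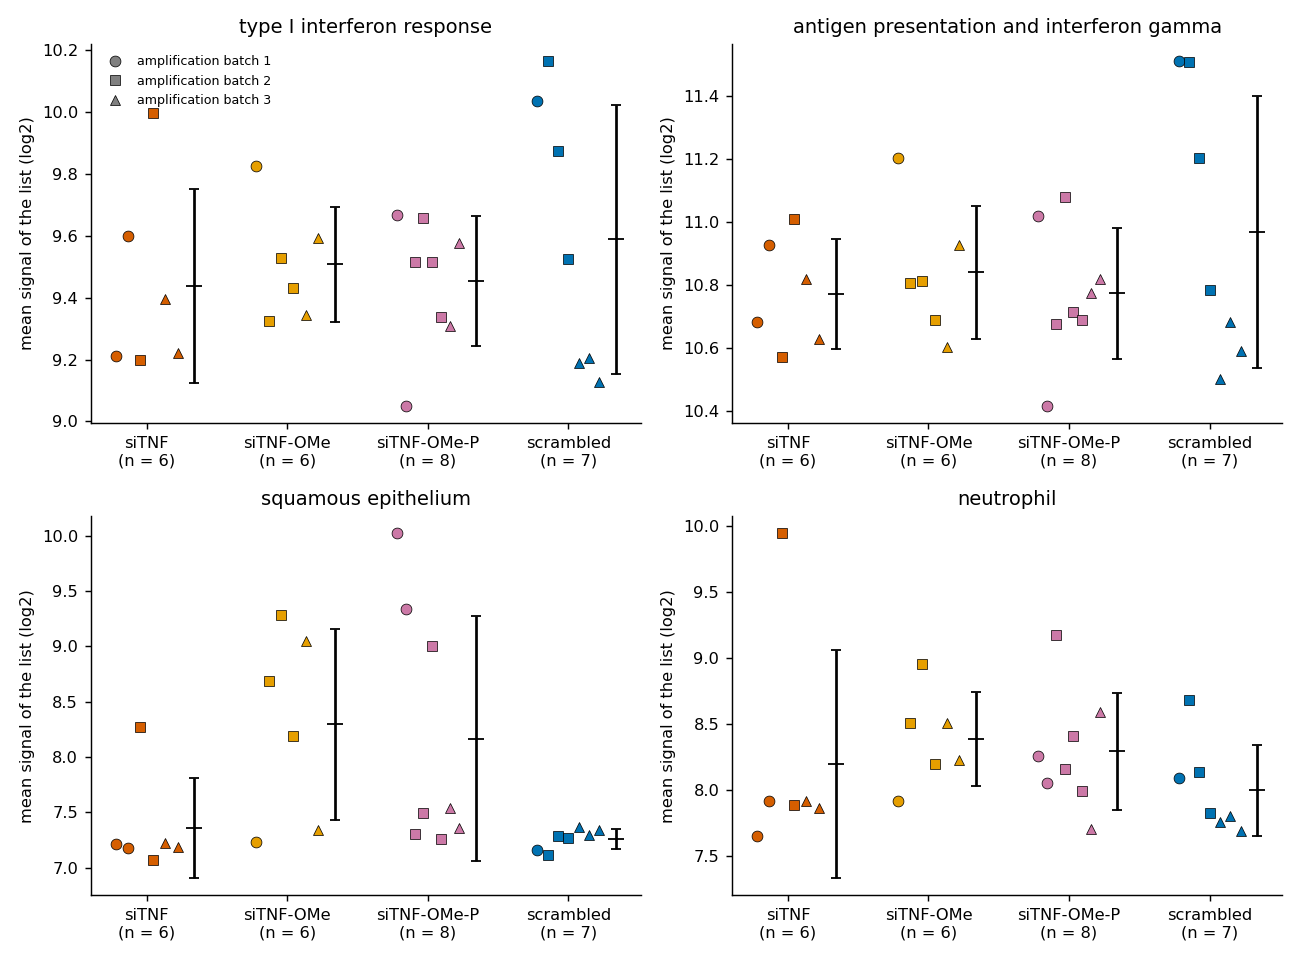
Mean signal (log2, y axis) of the measured genes of 4 lists on each array, by group, with symbols for the amplification batch and mean ± SD beside each group. Scrambled replicates 1 to 3 stand high on both interferon lists, while squamous genes are at 8 or more on 8 TNF siRNA arrays and at 7.11 to 7.36 on all scrambled arrays.

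Genes of the RNA interference machinery, which the siRNAs engage, were split 8 positive to 7 negative, with a median of 0.00 log2 and 1 lower at an unadjusted p under 0.05. That gene was Mov10, an RNA helicase that associates with Argonaute proteins, at -0.25 ± 0.11. Tarbp2 and Dicer1, which act together in processing small RNAs, were at 0.09 ± 0.06 and 0.07 ± 0.07, and Tnrc6b, an Argonaute partner in silencing, at -0.12 ± 0.07.

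Epithelial lists did not all lean 1 way: the crypt stem cell and Wnt list had a median of 0.02 log2 and the wound healing and repair list 0.03, while goblet and junction genes were mostly negative. Of 20 goblet cell and mucin genes, 20 were negative with a median of -0.11 log2, 2 of them lower at an unadjusted p under 0.05, and by siRNA the medians were 0.01 (siTNF), -0.14 (siTNF-OMe) and -0.18 (siTNF-OMe-P). The goblet median was -0.18 in amplification batch 2 alone and 0.01 in batch 3 alone, and -0.12 on arrays with an SD of at least 1.7. Gfi1, a transcription factor of the secretory lineage, and Muc3 (-0.07 ± 0.03), a transmembrane mucin, had the smallest p. Of 19 tight and adherens junction genes, 16 were negative with a median of -0.11, and by siRNA the medians were 0.00 (siTNF), -0.09 (siTNF-OMe) and -0.18 (siTNF-OMe-P). The junction median was -0.17 in amplification batch 2 alone and -0.04 in batch 3 alone, and -0.05 on arrays with an SD of at least 1.7. Cdh1 (E-cadherin) differed by -0.14 ± 0.05 and Epcam, an epithelial adhesion protein, by -0.10 ± 0.04. The claudins Cldn1 and Cldn4 were higher at an unadjusted p under 0.05, at 0.51 ± 0.18 and 0.26 ± 0.12. Cldn1 read 7.21, 7.80 and 9.30 at the lowest, median and highest TNF siRNA array and 7.15, 7.34 and 7.61 on scrambled arrays, with 14 of 20 TNF siRNA arrays above all scrambled arrays.

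Tissue remodelling lists leaned positive. Of 14 matrix metalloproteinase and inhibitor genes, 13 were positive, the median was 0.25 log2, and 4 were higher at an unadjusted p under 0.05 (background 3.02%). Adamts1 and Adamts4, proteases that cleave proteoglycans, differed by 0.76 ± 0.24 and 0.62 ± 0.26, and Mmp7, matrilysin, by -0.03 ± 0.07. In hybridization batches 1 and 2 alone Adamts1 was at 0.33 and 1.07, and Adamts4 at 0.39 and 0.81. The list medians in amplification batches 2 and 3 were 0.33 and 0.28, but in hybridization batches 1 and 2 they were 0.12 and 0.36, and on arrays with an SD of at least 1.7 the median was 0.13. Endothelial genes had 16 of 18 positive with a median of 0.12 and 4 at an unadjusted p under 0.05, and the medians of the 3 siRNAs were 0.11, 0.17 and 0.14. Emcn and Lyve1 led this list, Vwf (von Willebrand factor) was at -0.04 ± 0.06 and Prox1, the lymphatic regulator, at 0.00 ± 0.04. In amplification batches 2 and 3 the endothelial medians were 0.13 and 0.16, in hybridization batches 1 and 2 they were 0.04 and 0.19, and on arrays with an SD of at least 1.7 the median was 0.07.

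Squamous epithelium genes, which colon mucosa lacks and the anal lining makes, had the largest median, 0.44 log2, with 23 of 23 positive and 4 higher at an unadjusted p under 0.05. The squamous median was 0.56 in amplification batch 2 and 0.08 in batch 3, 0.99 with dim probe sets left out, and 0.47 on arrays with an SD of at least 1.7. Of the 23 genes, 9 had a mean above the median signal of the arrays. The list mean was 7.07, 7.43 and 10.02 log2 at the lowest, median and highest TNF siRNA array and 7.11, 7.28 and 7.36 on scrambled arrays. The TNF siRNA arrays at 8 or above were 8: siTNF replicate 3, siTNF-OMe replicates 2, 3, 4 and 5, and siTNF-OMe-P replicates 1, 2 and 5. Krt5, a keratin of basal squamous cells, read 6.96, 8.70 and 12.3 at the lowest, median and highest TNF siRNA array and 7.12, 7.24 and 7.55 on scrambled arrays, a difference of 1.89 ± 0.73. Krt13, a keratin of suprabasal squamous cells, differed by 1.47 ± 0.66. By siRNA the list medians were -0.05 (siTNF), 0.75 (siTNF-OMe) and 0.63 (siTNF-OMe-P). On the 19 arrays under 8, a limit chosen after seeing the data, the pooled comparison still called 0 probe sets. The squamous median there was -0.04, the neutrophil median 0.11, the metalloproteinase median 0.10 and the endothelial median 0.08. The goblet median was -0.07, the median of Tnf and NF-kB targets 0.04, the type I interferon median -0.06 and the antigen presentation median -0.12. The part of this tissue in the other lists was not tested.

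**Figure D5:**
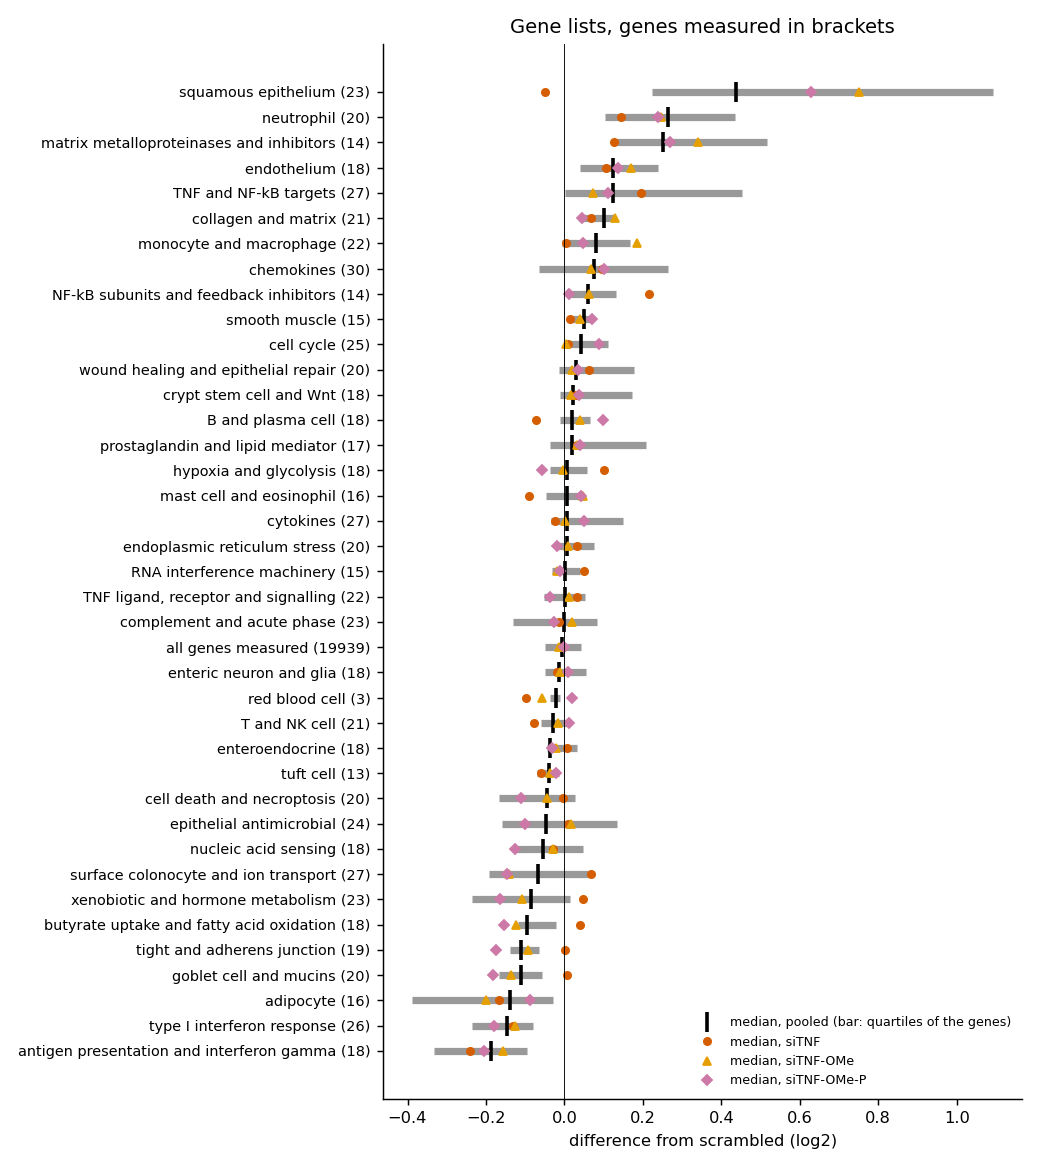
Median differences from scrambled (log2, x axis) of 38 gene lists and of all 19939 genes; black marks are the pooled medians, grey bars the quartiles of the genes and coloured points the medians of the 3 siRNAs, which share the 7 scrambled arrays. Pooled medians run between -0.19 for antigen presentation and interferon gamma and 0.44 for squamous epithelium, and the siTNF median of the squamous list lies at -0.05.

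Of the lists not described gene by gene, none held a called gene. Their medians ran between -0.14 for adipocyte genes, with 3 of 16 lower at an unadjusted p under 0.05, and 0.10 for collagen and matrix genes. Both depended on single arrays: the adipocyte median was -0.02 without scrambled replicate 2 and -0.22 without scrambled replicate 1, and the collagen and matrix median was 0.03 without scrambled replicate 4. With dim probe sets left out the adipocyte median was -0.29. Macrophage, T cell and B cell lists had medians of 0.08, -0.03 and 0.02, and cytokines 0.01.

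Whether the siRNAs differed from each other bears on what they share. The F test among the 3 siRNAs called 0 probe sets (smallest adjusted p = 0.493, limma) with 1974 at an unadjusted p under 0.05. Against the same scrambled arrays, siTNF called 0 probe sets (smallest adjusted p = 0.211, 1333 at an unadjusted p under 0.05), siTNF-OMe 0 (smallest adjusted p = 1, 831) and siTNF-OMe-P 0 (smallest adjusted p = 0.688, 1876). With array SD as a covariate the F test called 17 probe sets and siTNF-OMe-P over scrambled 30. On the 19 arrays under the squamous limit the F test called 2264, but only 2 siTNF-OMe arrays remained there, and leaving out 1 more array gave between 0 and 4345 calls.

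The labels give 4 measures of colon inflammation per animal. MPO activity, a measure of infiltrating neutrophils, averaged 0.409 ± 0.310 U per mg with TNF siRNA (SD, n = 20) and 0.583 ± 0.440 with scrambled siRNA (SD, n = 7). The lowest, median and highest were 0.031, 0.388 and 1.16 with TNF siRNA and 0.238, 0.393 and 1.35 with scrambled siRNA. The medians were close and the arms overlapped, but the TNF siRNA arm reached lower values. On the log2 scale the difference of means was -0.73, which did not pass the adjusted test. The difference of means was -0.174 U per mg with a 95% interval of -0.487 to 0.134 (exact two-sided permutation test, p = 0.265, adjusted p = 1 over the 4 measures), and 15 of 20 TNF siRNA animals were below the scrambled mean. With 1 animal left out it ran between -0.232 and -0.0462 U per mg, the value nearest 0 without scrambled replicate 2. By amplification batch it was -0.453 in batch 1, with 1 scrambled animal, -0.354 in batch 2 and 0.0285 in batch 3.

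Colon length averaged 6.08 ± 0.440 in the labelled unit with TNF siRNA and 6.07 ± 0.304 with scrambled siRNA (exact permutation test, adjusted p = 1). The labels give the length in mm, but the labelled ratio of weight to length matches a length in cm, so no unit is given here. Colon weight averaged 166 ± 10.5 mg with TNF siRNA and 166 ± 13.9 mg with scrambled siRNA (exact permutation test, adjusted p = 1). The ratio of weight to length averaged 2.74 ± 0.227 mg per mm as labelled with TNF siRNA and 2.76 ± 0.225 with scrambled siRNA, a difference of -0.0175 with a 95% interval of -0.222 to 0.187 (exact permutation test, adjusted p = 1).

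The pooled ratio averaged over siRNAs that differed. It was 2.85 ± 0.164 with siTNF (SD, n = 6), 2.88 ± 0.103 with siTNF-OMe (SD, n = 6) and 2.56 ± 0.215 with siTNF-OMe-P (SD, n = 8). An exact permutation test among the 3 siRNAs, added after the data were seen, gave p = 0.00252 (adjusted p = 0.0101 over the 4 measures). The labelled ratio departed from weight over length by more than 0.05 in 2 of the 27 animals, siTNF-OMe-P replicate 3 (2.62 labelled, 2.79 recomputed) and scrambled replicate 7 (2.76 labelled, 2.59 recomputed). With all ratios recomputed the exact permutation test among the siRNAs gave an adjusted p of 0.0295, and the pooled difference from scrambled was 0.0152. The same exact permutation test gave adjusted p-values of 0.0844 for length, 0.234 for MPO activity and 0.505 for weight. Doses are not given in the sources used here, so whether they matched is not known.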

How the data were processed

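The deposited values are log2 signals per probe set, for which the submitters' processing notes name Partek and RMA without versions. No source used here says whether the authors removed batch effects. Per the labels' protocols, total RNA was amplified and biotin labelled. All probe sets were kept. The files hold no background level, and precision is limited by how many arrays there are. Of 28853 probe sets, 21789 carry 1 gene in the platform annotation, 1621 several and 5443 none. For 21698 of these 1-gene probe sets the gene ID was found in the reference, and the symbol given there was used. The values of 476 probe sets repeat those of an earlier one. For each of 19939 genes the probe set with the highest mean was used.

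The comparison used limma 3.58.1 (R 4.3.3), with terms for arm, amplification batch and hybridization batch on 27 arrays (22 residual degrees of freedom), with empirical Bayes moderation, a mean-variance trend, two-sided tests and Benjamini-Hochberg adjustment over all probe sets at a threshold of 0.05. The model with 4 groups gave the single siRNAs and the F test among them. Tnf and the colon measures were tested by exact permutation in Python 3.11.15, over 888030 arrangements for the pooled difference. The tests among the 3 siRNAs ran over all divisions of the 20 pooled animals. The fits were tested on simulated data.

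The text names Tnf, the 10 genes per direction with the smallest unadjusted p (none was called), and up to 2 members per direction from each of 13 gene lists it describes by gene. The members and the 38 lists were chosen with earlier results of these data known. Alternatives changed the batch terms, the arrays, the normalization, the filter on dim probe sets and the moderation.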

Additional observations from a re-analysis of the deposited data

Results flagged for a closer look

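Among 260 groups of values (61 named genes and 4 colon measures in 4 groups each), 23 held a value far from the rest of its group, where chance gives about 1 in 20, or 13. Of the 23, 10 were on siTNF replicate 3, an array with an SD of 1.69 log2, under 1.7, and a weight of 0.22 in the fit with array weights. That array read 11.85 for Krt5 (next highest siTNF array 7.48), 10.06 for Krt13 (7.45), 11.7 for Il1r2 (8.66) and 10.82 for Clec4d (8.75). It was lowest in its group for Nlrp1b at 7.755 (8.09), Tradd at 10.11 (11.1), Irf1 at 10.05 (10.99), Ccl28 at 9.605 (11.3), Cdh1 at 12.29 (12.6) and Epcam at 12.12 (12.3). Its MPO activity, 0.703 U per mg, was also the highest of the siTNF animals.

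siTNF-OMe-P replicate 8 was lowest in its group for Dnajb4 at 8.866 (next 9.27), Tab2 at 10.21 (10.4) and Tnrc6b at 8.987 (9.31), and it is 1 of the arrays with an SD under 1.7. siTNF-OMe-P replicate 3 was highest for Lyve1 at 11.14 (10.7). siTNF replicate 4 was highest for Cldn1 at 9.296 (7.91) and Dicer1 at 9.766 (9.42). In the siTNF-OMe group, replicate 2 was lowest for Ube2s at 9.34 (9.41), replicate 1 highest for Tnrc6b at 9.605 (9.43), replicate 5 highest for Vwf at 9.352 (9.10) and replicate 6 highest for H2-Eb1 at 12.02 (11.9). Among scrambled arrays, replicate 2 was highest for Gm1966 at 8.515 (8.08) and replicate 4 for Tradd at 11.49 (11.2), and replicate 3 had the longest colon, 6.7 in the labelled unit (6.1).

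The ratio of colon weight to length differed among the 3 siRNAs by the exact permutation test (adjusted p = 0.0101): it was lowest with siTNF-OMe-P, at 2.56, against 2.85 with siTNF and 2.88 with siTNF-OMe.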

How the results depend on the processing

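The pooled comparison called 0 probe sets under each of 50 alternatives, 27 of which left out 1 array, with the smallest adjusted p between 0.131 and 1. The split at an unadjusted p under 0.05, 747 higher and 415 lower, was 942 and 795 after quantile normalization, 1407 and 1698 with array SD as a covariate, 801 and 1424 on arrays with an SD of at least 1.7, 1259 and 1404 with array weights, and 744 and 1886 on arrays with a squamous list mean under 8. In that order the totals were 1737, 3105, 2225, 2663 and 2630, all above the 1442.65 given by null tests. Other alternatives lay below it, such as 525 with all 36 arrays and 997 with no batch terms. With the replicate block in place of batch terms, the pooled count was 0 (smallest adjusted p 0.894). Of 37 pairs of arrays with the same number, 22 correlated above 0.1 (range -0.373 to 0.642), the median was 0.171 for these pairs against -0.0242 for other pairs, and 4 of 27 arrays correlated best with their own number. Not every pair was above 0.1, so the numbers were not taken to pair the samples. True pairs could fail that rule too, so it does not settle whether the numbers pair them.

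Differences among the 3 siRNAs were called at 17 probe sets with array SD as a covariate, 3 after quantile normalization and 2264 on the 19 arrays with a squamous list mean under 8. That last alternative, added after seeing the data, left 5 siTNF, 2 siTNF-OMe and 5 siTNF-OMe-P arrays. Leaving out 1 more array gave 0 to 4345 calls, and 9 of the 19 arrays brought it to 0 when left out, siTNF-OMe-P replicate 8 among them; the cause was not tested. siTNF-OMe-P over scrambled called 30 with array SD as a covariate and 1 after quantile normalization. Leaving out 1 array gave 0 to 1 calls for siTNF and 0 to 1 for siTNF-OMe.

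Of 61 named genes, 44 kept their direction under all alternatives that measured them (Cxcl5, Elane, Gfi1 and Mmp7 were absent with dim probe sets left out) and 17 reversed under at least 1; the values below are log2 differences of those, and the cause was not tested. In amplification batch 3 alone the difference was 0.312 for Tnf, 0.0614 for Tap2, 0.00794 for Plaat3, 0.136 for Cyld, 0.0174 for Tnip1, 0.0209 for Tapbp, 0.22 for Irf1, 0.163 for Parp14, 0.256 for Oas3, 0.0337 for Ciita and 0.0143 for Mov10. In amplification batch 2 alone the difference was 0.0191 for Stfa2, -0.00813 for H2-Eb1, -0.0314 for Cldn4 and 0.0189 for Prox1. In hybridization batch 1 alone the difference was 0.0126 for Tab1, 0.0626 for Tnip1, 0.0239 for Stfa2, -0.142 for H2-Eb1, 0.042 for Vwf and 0.0405 for Prox1. In hybridization batch 2 alone the difference was 0.038 for Oas3. Without siTNF in the pool the difference was 0.00127 for Stfa2 and 0.0209 for Prox1. Without siTNF-OMe the difference was -0.0395 for H2-Eb1 and 0.00195 for Prox1. Without siTNF-OMe-P the difference was 0.0215 for Tnf and 0.0338 for Tnip1. With the replicate block the difference was -0.0135 for H2-Eb1. With all 36 arrays the difference was -0.00113 for H2-Eb1. On arrays with an SD of at least 1.7 the difference was -0.0261 for H2-Eb1. With array SD as a covariate the difference was 0.00685 for Prox1. After quantile normalization the difference was 0.014 for Prox1. After median centring the difference was 0.00631 for Prox1. On arrays with a squamous list mean under 8 the difference was 0.0194 for Tnip1 and -0.00909 for H2-Eb1. Leaving out 1 array gave -0.0249 to 0.0435 for H2-Eb1, -0.0199 to 0.0138 for Prox1, -0.0383 to 0.000924 for Stfa2, -0.17 to 0.0327 for Tnf and -0.0766 to 0.0312 for Tnip1.

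The difference in colon length was -0.00129 on the log2 scale and -0.0284 as an unweighted mean of the 3 groups, and -0.0504 to 0.108 with 1 animal left out. The difference in colon weight was -1 mg between medians and -2.1 to 3.4 mg with 1 animal left out. For the ratio it was 0.0215 between medians, 0.00314 as an unweighted mean of the groups, 0.0152 when recomputed from weight and length, and -0.0592 to 0.0225 with 1 animal left out. None of the 4 colon measures passed under an alternative that was tested; the unweighted mean of the groups was a value with no test.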
